A study of Mus musculus with 3 samples.

Results

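The replication-dependent histone genes encode the H1 linker histone and the core histones H2A, H2B, H3 and H4 that package newly copied DNA. They were taken as every feature whose symbol starts with Hist1h, Hist2h, Hist3h or Hist4h, without symbols marked as pseudogenes by "-ps". This gave 69 of 53380 features: 6 genes of type H1, 20 of H2A, 18 of H2B, 12 of H3 and 13 of H4. Of these, 56 lie in the Hist1 cluster on chromosome 13, 10 in the Hist2 cluster on chromosome 3, 2 in Hist3 on chromosome 11 and 1 in Hist4 on chromosome 6.

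The study applied single-cell RNA sequencing to sorted mesenchymal cells of mouse sciatic nerve. All cells carried the R26-TomatoLSL reporter, a TdTomato gene silent until Cre recombinase removes a stop cassette, and Pdgfrb-cre/ERT2, a tamoxifen-activated Cre driven by the promoter of Pdgfrb, a PDGF receptor gene of mesenchymal and mural cells. TdTomato-positive cells were sorted from intact nerve, from the bridge between the nerve stumps at day 7 after injury and from the bridge at day 21. Nerves were pooled before sorting, the sources used here do not give the animals' age, and beads that remove myelin were applied to intact nerve but not to the bridge, so that step cannot be told apart from injury. With 1 library for each group, differences carry no p-value and no check by replicates, and every interval is a 95% interval that covers counting error only.

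Histone proteins are needed in bulk in S phase, when the genome is copied, and the transcripts of these genes are made and destroyed with it. Most of these transcripts are not polyadenylated: they end just after a short stem-loop, which the stem-loop binding protein Slbp holds for processing, export and translation. Some of the same genes also give longer, polyadenylated transcripts, chiefly known from cells that have left the cell cycle. UMI counts (unique molecular identifiers, 1 per captured molecule) from a library that favours polyadenylated RNA therefore need not follow the full amount of a histone transcript. Shares of histone UMIs by gene or type, given below, are shares of captured molecules and no measure of transcript amounts between genes.

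The stem-loop was searched in the GENCODE M21 transcripts, within 120 bases after the stop codon, as 2 complementary arms of 6 bases that start with GG and enclose a loop of 4 bases that starts with TT. Of each of the 69 genes, only the transcript with the longest stretch after the stop codon was searched. Its end is the annotated 3′ end used below. The stem-loop was found in 43 of the 69 genes. Among other coding transcripts with at least 120 bases after the stop codon, it was found in 12 of 39121 (0.031%). The 2 counts differ in unit, 1 transcript per gene against every transcript. No minimum length was set for the 69 genes, of which 52 had 30 bases or more after the stop codon. Only 6 different sequences occurred among the 43 genes, shown here as DNA because they mark the gene family and its processing signal. Capitals mark the arms and lower case the loop.
Found in 25 genes: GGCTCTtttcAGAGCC
Found in 7 genes: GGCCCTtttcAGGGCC
Found in 6 genes: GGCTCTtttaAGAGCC
Found in 2 genes: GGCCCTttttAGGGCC
Found in 2 further genes: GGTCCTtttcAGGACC
Found in 1 gene: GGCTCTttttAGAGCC

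The stem-loop with its flanking bases is given for 4 genes whose levels differed widely below. Hist1h2ap and Hist1h1c share the arms and loop, and Hist1h4d and Hist1h4h share another form.
Hist1h2ap: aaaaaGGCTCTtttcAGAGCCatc
Hist1h1c: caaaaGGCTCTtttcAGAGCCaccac
Hist1h4d: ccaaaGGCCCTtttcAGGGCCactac
Hist1h4h: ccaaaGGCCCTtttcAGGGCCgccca
By contrast the annotated 3′ ends differed: 39 genes had a short model that stopped within 100 bases of the stem-loop (or of the stop codon where none was found), 28 had a long model that ran on past it, and 2 had no coding model (both annotated as pseudogenes). The annotated end lay 3 bases past the stem-loop in Hist1h2ap, 46 in Hist1h4h, 770 in Hist1h4d and 840 in Hist1h1c. No stem-loop was found in the searched transcript of Hist1h2bc, whose model ran 742 bases past the stop codon. Transcripts of this gene have up to 2 exons. Any other transcript of Hist1h2bc was not searched, so the gene may still hold a stem-loop. For the 13 models that end at the stop codon the window was empty.

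Promoter sequences came from RefSeq on GRCm38.p6 and were matched for 62 of the 69 genes. The letters CCAAT, bound in many promoters by NF-Y, occurred on either strand in the 250 bases before the start of 51 of 62 genes (82.3%), against 33.8% of all 32851 promoters. The TATA box letters TATAAA occurred in 29 (46.8%, against 12.4%) and the octamer ATTTGCAT, a binding motif of Oct1, in 13 (21.0%, against 1.6%). None of these motifs contains another. CCAAT was present in all matched genes of types H1 (6), H2A (18) and H2B (16), in 8 of 10 of H3 and in 3 of 12 of H4, and the octamer in 7 of 18 H2A and 6 of 16 H2B genes and in none of the other types. The 150 bases before the start are shown for 3 genes that were all far higher in dividing cells and for Hist1h4h, which was less so. Capitals mark matches to the 3 motifs on either strand.
Hist1h1b, chr13:21780626-21780775, minus strand: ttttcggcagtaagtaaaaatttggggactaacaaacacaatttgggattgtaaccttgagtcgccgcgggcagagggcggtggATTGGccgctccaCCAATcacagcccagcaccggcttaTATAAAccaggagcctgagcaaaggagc
Hist1h2ap, chr13:21833476-21833625, minus strand: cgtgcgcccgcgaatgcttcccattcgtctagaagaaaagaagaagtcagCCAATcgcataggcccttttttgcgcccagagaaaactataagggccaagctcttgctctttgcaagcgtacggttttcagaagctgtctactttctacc
Hist1h2ae, chr13:23571221-23571370, minus strand: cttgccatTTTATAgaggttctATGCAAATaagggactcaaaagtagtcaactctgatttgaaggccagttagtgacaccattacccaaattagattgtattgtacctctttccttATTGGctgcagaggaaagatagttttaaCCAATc
Hist1h4h, chr13:23530894-23531043, plus strand: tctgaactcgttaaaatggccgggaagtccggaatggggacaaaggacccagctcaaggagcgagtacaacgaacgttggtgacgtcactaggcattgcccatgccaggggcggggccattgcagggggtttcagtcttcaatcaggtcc
The Hist1h1b window holds both CCAAT orientations and a TATA box close to the start, the Hist1h2ap window 1 CCAAT, the Hist1h2ae window all 3 motifs, and the Hist1h4h window none of them. The TATA match of Hist1h2ae is in reverse orientation and far from its start. The same bases read TATAAA closer to the start of Hist1h2bg, a neighbour on the plus strand whose window overlaps. Where windows overlap in this way, the same letters can count for both genes in the numbers above. A match describes these letters and is no evidence of binding. The windows shown are examples, and motifs were not tested against the levels in dividing cells. Hist1h4d, with a ratio of dividing to other classes close to that of Hist1h4h, has CCAAT and TATAAA. Hist3h2a, with a ratio of 0.973, has CCAAT and the octamer.

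The authors' cell table assigned 7234 cells of the 14703 barcodes to 6 classes, with 1343 cells of intact nerve, 1780 at day 7 and 4111 at day 21. Median UMIs per cell were 5667, 19316 and 7442 in that order. Levels are given as CPM, the summed UMIs of a gene or gene group divided by all UMIs of the cells named and scaled to 1000000. The class MES_DIV, called the dividing class here, held 7, 206 and 119 cells, and 8 fixed markers of dividing cells, such as Mki67 and Cdk1, summed to between 3008 and 3688 CPM in it, against at most 104 CPM in MES_ENDO, MES_EPI and MES_PERI. MES_ENDO, MES_EPI and MES_PERI each had the highest sum of endoneurial, epineurial and perineurial markers among these 3 classes in every library, but the perineurial markers summed to 758 CPM in MES_PERI at day 7, against 5562 in intact nerve and 2864 at day 21. The dividing class also held signal of other cell types: 34 of its 206 cells at day 7 and 59 of its 119 cells at day 21 had at least 1000 CPM of 7 Schwann cell markers, and 37 and 18 had as much of 5 pericyte markers, genes of the mural cells of small vessels. Vascular smooth muscle markers, 4 genes, summed to 3659 CPM in the dividing class of intact nerve, 1371 at day 7 and 264 at day 21, against 287 and 78.5 CPM in the other classes at days 7 and 21. The histone sum, the type ratios and the order by S phase share were also computed without dividing cells that had at least 1000 CPM of Schwann, myeloid, endothelial or pericyte markers, called marker-rich below. The treatment of doublets is not given in the sources used here, and the libraries shared 1 to 2 annotated barcodes in each pair.

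Of the 69 genes, 62 had at least 1 UMI in the annotated cells and 7 had none: Hist2h2aa2, Hist2h3c1, Hist1h2aj, Hist1h2bq, Hist1h2ba, Hist1h2aa and Hist1h2al. Of the 62, 52 had at least 50 UMIs. Many copies are near-identical: in 34 of the 69 genes at least 50% of all 50-base words of the transcripts also occur in another annotated gene, member or not. For Hist1h2ap that share was 93.1%, for Hist2h2aa1 89.4% and for Hist1h2bc 30.1%. Among the genes without a UMI it was 100% for Hist2h2aa2 and Hist2h3c1 and 97.3% for Hist1h2bq. Reads that match several genes may be counted for none of them, so a count of 0 need not mean an absent transcript. Counts of close copies are uncertain for this reason, and sums over a type can miss the same reads. The annotated spans of Hist1h2be and Hist1h1e overlap on the same strand, so reads there could count for either.

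The dividing class had the highest histone level of the 6 classes in every library. Its histone sum, the summed UMIs of the 69 genes, was 12234 CPM at day 7 (interval 12139 to 12329) and 12153 CPM at day 21 (11976 to 12332). In the other 5 classes, pooled, it was 374 CPM in intact nerve, 426 at day 7 and 558 at day 21. Day 7 dividing cells were 11.6% of the annotated cells and held 82.7% of the histone UMIs, and day 21 dividing cells were 2.89% of cells and held 50.0%. In intact nerve the 7 dividing cells were 0.521% of cells, held 11.45% of the histone UMIs and reached 3934 CPM (3558 to 4339), but 1 of them held 223 of their 400 histone UMIs and another 109, so this value describes a few cells.

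**Figure D1:**
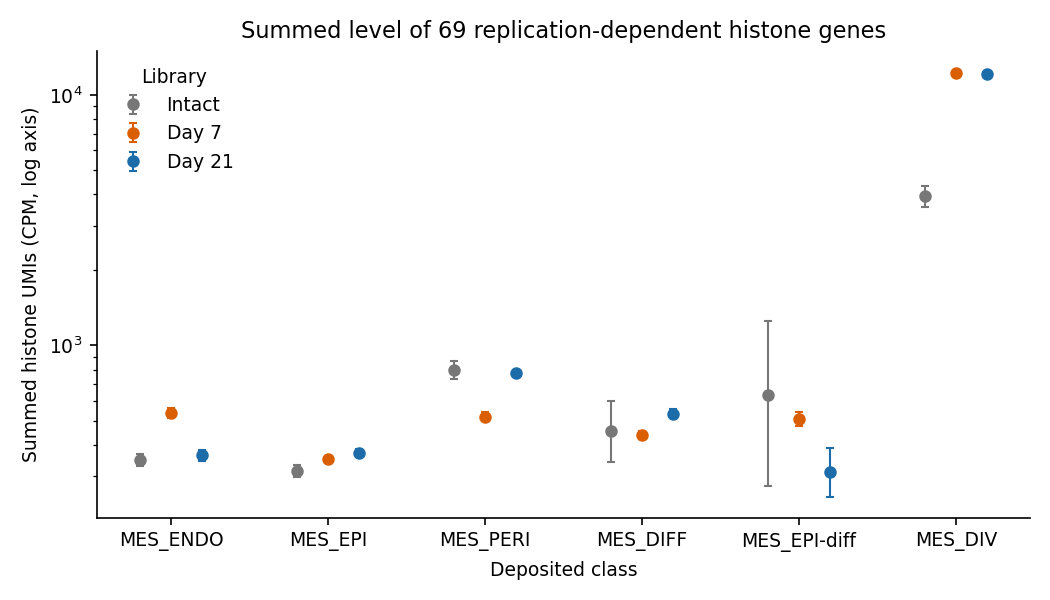
Summed level of the 69 histone genes (CPM, log axis) in each deposited class and library, with 1 point per class and library and bars for the 95% Poisson interval of the count. MES_DIV stands above every other class in each library, at 3934, 12234 and 12153 CPM, while the other classes lie between 313 and 800 CPM.

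The ratio of dividing to other cells was 28.7 at day 7 (28.2 to 29.3) and 21.8 at day 21 (21.3 to 22.2) for the histone sum. Without the marker-rich cells, 135 cells remained at day 7 with 11999 CPM and 48 at day 21 with 14975 CPM. With vascular smooth muscle markers added to that limit, 118 and 47 cells remained with 12125 and 14472 CPM. At day 7, 54 of the 58 members with more than 3 UMIs in either set were more than 2-fold higher in the dividing class, against 12.6% of all features counted the same way, and 1 was more than 2-fold lower, against 9.83%. At day 21, 52 of 58 were higher, against 20.7% of all features, and 0 were lower, against 10.1%. The median log2 ratio of these members was 5.35 at day 7 and 6.04 at day 21, beside 0.04 and 0.19 over all features. The authors assigned the class from expression and the genes they used are not given in the sources used here, so these ratios describe the class and do not test it.

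Within the dividing class, day 21 and day 7 had nearly equal histone sums, with a ratio of 0.993 (0.977 to 1.01). When marker-rich cells were left out, day 21 was higher than day 7 by a log2 ratio of 0.32. Of 58 members, 4 were more than 2-fold higher at day 21, against 11.0% of all features, and 1 was lower, against 9.36%. By type, H2A took 63.2% of the class's histone UMIs at day 7 and 57.9% at day 21, H1 16.1% and 18.6%, H4 8.88% and 11.1%, H3 6.06% and 5.65%, and H2B 5.85% and 6.77%.

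The 5 histone types stood apart from the other classes to very different degrees. Over the 3 libraries together, H2A was 98.2-fold higher in dividing cells (95.5 to 101.0), H3 62.5-fold (58.0 to 67.3), H1 19.6-fold (19.1 to 20.2), H4 13.4-fold (13.0 to 13.9) and H2B 3.59-fold (3.47 to 3.70). These pooled values hide differences between libraries. The H1 sum was 11.7-fold higher in intact nerve (9.47 to 14.4), 33.0-fold at day 7 (31.4 to 34.7) and 15.3-fold at day 21 (14.6 to 16.0), and 29.7-fold with day 21 left out. At day 21 the H1 sum and the H4 sum, at 14.9-fold (14.1 to 15.8), had overlapping intervals. In intact nerve the H3 sum, at 32.1-fold (20.65 to 48.9), and the H2A sum, at 23.5-fold (19.6 to 28.0), overlapped as well. Leaving out marker-rich cells moved none of the 5 pooled type ratios by over 1.5 times. The spread among single genes was wider still. Among the 52 members with at least 50 UMIs the ratio ran from 0.334 for Hist2h3c2 to 1528 for Hist1h2af, with a median of 48.4. It was above 50 in 21 members and below 4 in 8.

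**Figure D2:**
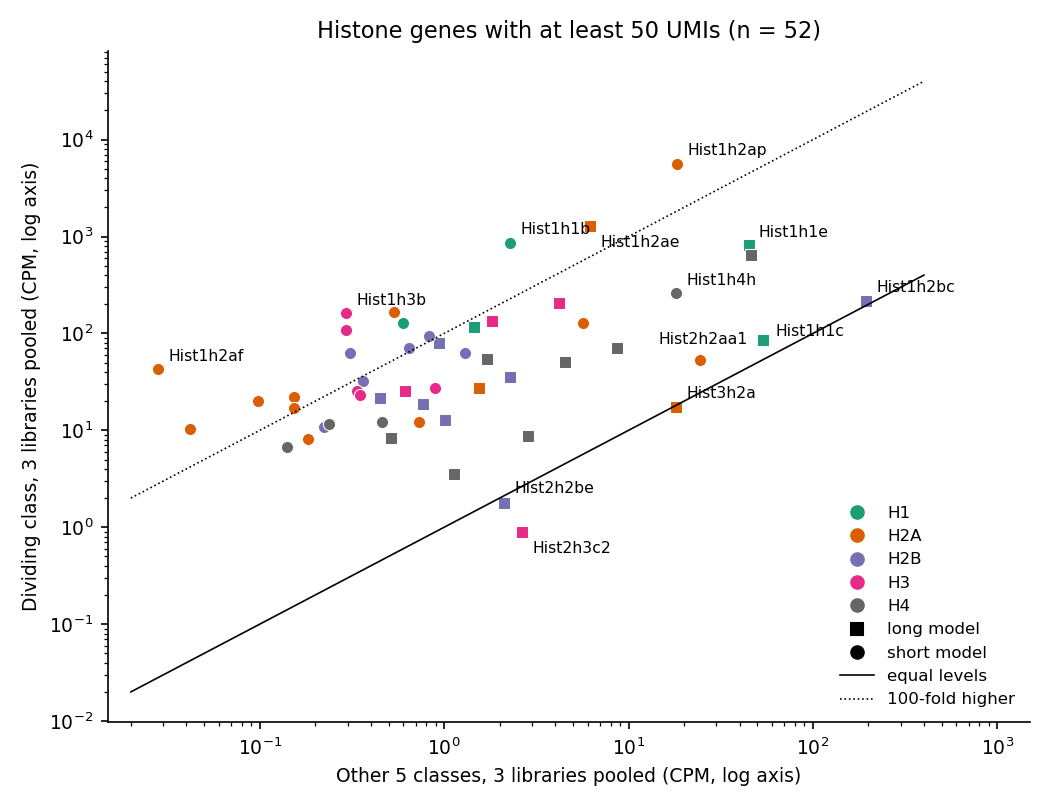
Level of each of the 52 histone genes with at least 50 UMIs in the dividing class (vertical) against the other 5 classes (horizontal), both in CPM on log axes with the 3 libraries pooled; colours give the histone type, squares long and circles short transcript models. Of these genes 21 lie above a 50-fold ratio, while Hist1h2bc, Hist3h2a and Hist2h2be lie close to the line of equal levels and Hist2h3c2 below it.

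Of the H2A genes, Hist1h2ap had 34.2% of all histone UMIs of the annotated cells. It measured 984 CPM in intact dividing cells, 5871 at day 7 and 5286 at day 21, against 8.83, 28.0 and 11.6 CPM in the other classes. The intervals of dividing and other cells did not overlap in any library, and 96.7% of its UMIs lay in dividing cells. Hist1h2ae, the next in UMIs, measured 216, 1328 and 1203 CPM in dividing cells against 1.94, 8.94 and 4.60 CPM in the others, a ratio of 208 over the 3 libraries (189 to 230). Hist1h2af had 289 UMIs in dividing cells and 2 in all others, a ratio of 1528 (419 to 12678).

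Other H2A genes did not share this pattern. Hist3h2a measured 0, 18.4 and 16.2 CPM in dividing cells and 15.6, 15.2 and 21.5 CPM in the others, a ratio of 0.973 (0.799 to 1.17). Without marker-rich cells, vascular smooth muscle included, its ratio was 0.643 (0.467 to 0.866). Hist2h2aa1 was 2.17-fold higher in dividing cells (1.94 to 2.44), with 52.97 against 24.4 CPM.

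Of the H1 linker histone genes, Hist1h1b (histone H1.5) was 383-fold higher in dividing cells (327 to 450). It measured 29.5 CPM from 3 UMIs in intact dividing cells, 897 at day 7 and 822 at day 21, against 0.121, 3.39 and 1.74 CPM in the others. Hist1h1a (H1.1) was 211-fold higher (156 to 294). Hist1h1e (H1.4) was high in both kinds of cell: its ratio was 18.2 (17.4 to 19.1), with 669, 762 and 1013 CPM in dividing cells and 49.7, 29.0 and 58.7 CPM in the others. Hist1h1c (H1.2) differed least of the 4, at 1.61-fold (1.47 to 1.76), and 2.63-fold with day 21 left out. It measured 49.2, 73.2 and 134 CPM in dividing cells and 37.4, 25.1 and 84.9 CPM in the others, a ratio of 2.92 at day 7 (2.58 to 3.31) and 1.57 at day 21 (1.355 to 1.82).

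Of the H2B genes, Hist1h2bc had 13.2% of all histone UMIs and was 1.13-fold higher in dividing cells (1.07 to 1.19), with 218 against 194 CPM, but without marker-rich cells its ratio was 0.988 (0.921 to 1.06). It held 13828 of the 14634 H2B UMIs of the other classes. Hist2h2be was close to equal at 0.840 (0.425 to 1.51), from 12 UMIs in dividing cells. Other H2B genes followed the H2A pattern: Hist1h2bj was 114-fold higher (87.2 to 152), Hist1h2bb 110-fold (81.1 to 152) and Hist1h2br 85.5-fold (66.3 to 112). With day 7 left out the ratios of Hist1h2bj and Hist1h2bb were 189 and 165.5. With Hist1h2bc left out, the dividing class stood 51.3-fold above the others at day 7 and 35.2-fold at day 21 in the histone sum.

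Of the H3 genes, Hist1h3b was 552-fold higher in dividing cells (359 to 895) and had 0, 17 and 4 UMIs in the other classes of the 3 libraries. Hist1h3c was 373-fold higher (242 to 606), Hist1h3f 73.8-fold (61.3 to 89.4) and Hist1h3e 49.8-fold (43.9 to 56.6). Hist2h3c2 went the other way, with 6 UMIs in dividing cells and 190 in the others, a ratio of 0.334 (0.121 to 0.740). Of its 50-base words 63.5% also occur in another gene, so its counted reads need not stand for the whole transcript. With day 7 left out, the ratio of Hist1h3b was 1425 and that of Hist1h3c 617, from 4 and 7 UMIs in the other classes, and that of Hist2h3c2 was 0.5215 (0.106 to 1.55), from 3 UMIs in dividing cells.

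The H4 genes kept a narrower range, from 3.07 to 49.1-fold. Hist1h4d was 14.0-fold higher in dividing cells (13.4 to 14.7), Hist1h4h 14.4-fold (13.4 to 15.5), Hist1h4c 11.0-fold (9.44 to 12.9) and Hist1h4i 8.27-fold (7.33 to 9.34). Hist1h4d measured 305, 607 and 812 CPM in dividing cells and 64.2, 36.0 and 51.2 CPM in the others, so dividing cells stood above the others in all 3 libraries.

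The annotated 3′ end went with these ratios. Genes with short models were 104-fold higher in dividing cells as a sum (101.1 to 107), and genes with long models 9.86-fold (9.69 to 10.02). Of the members with at least 50 UMIs, the median ratio was 99.7 over 28 short models and 16.0 over 24 long ones, and 7 of the 8 members under 4-fold had long models, with Hist2h2aa1 the exception. Across the 52 genes, Spearman's rho between the annotated bases past the stem-loop or stop codon and the ratio was -0.563. For the level in the other classes it was 0.533 and for the level in dividing cells 0.03. Genes share libraries and cells and many share sequence, so these are descriptions.

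**Figure D3:**
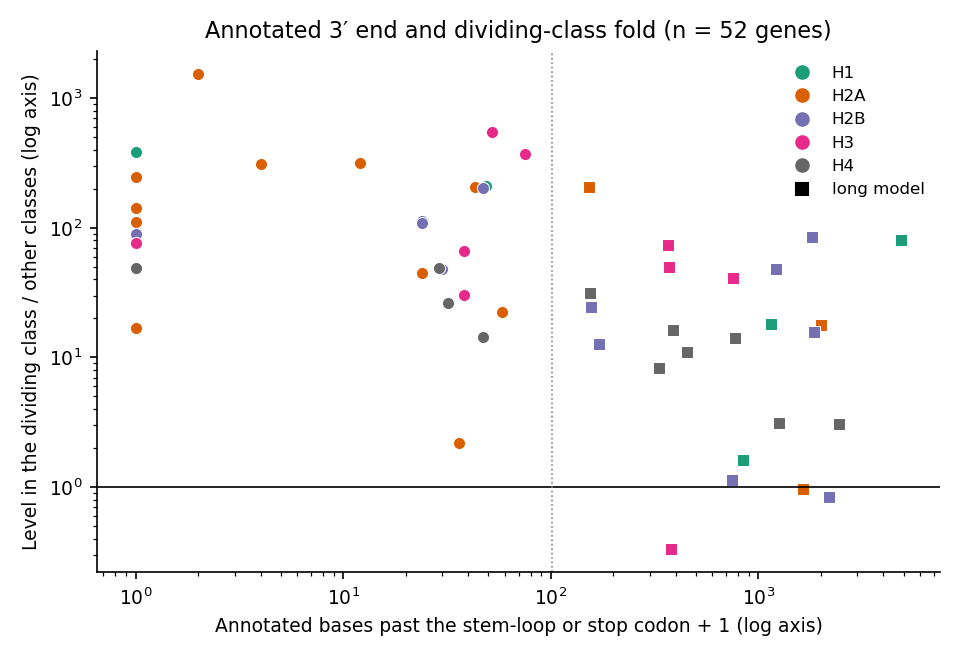
Ratio of dividing-class to other-class level (vertical, log axis) against the annotated bases past the stem-loop or stop codon plus 1 (horizontal, log axis) for the 52 histone genes with at least 50 UMIs; squares are long models (right of the dotted line), circles short models, and colours the histone type. The genes near a ratio of 1 lie mostly at the right, and rho was -0.563. Models that end at the stop codon lie at the far left and need not mark the true 3′ end.

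Cells of the dividing class differed widely among themselves. At day 7 the histone sum per cell ran from 127 to 60645 CPM with a median of 6930, and at day 21 from 0 to 87038 CPM with a median of 2108. The 20 cells with most histone UMIs held 33.96% of them at day 7, and the 11 with most held 39.6% at day 21. In 63 and 42 cells the histone sum was under 1000 CPM. Every dividing cell at day 7 had at least 1 histone UMI (206 of 206, interval from 98.2%) and so did 116 of 119 at day 21 (97.5%, 92.8 to 99.5%). In the other classes, 77.5%, 96.2% and 92.2% of cells had one at median depths of 5652, 18933 and 7360 UMIs in the 3 libraries. With every cell thinned to 2000 UMIs, the shares were 85.4% and 82.35% in dividing cells and 47.8%, 51.9% and 63.1% in the others.

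Histone levels were set beside cell cycle genes. Cells were ordered by the share of S phase UMIs among the UMIs of 37 S phase genes, such as Pcna and Tyms, and 49 G2/M genes, such as Hmgb2 and Tmpo, and split into 3 sets of equal size. At day 7 the histone sum was 5468 CPM in the set with the lowest S phase share, 20382 in the middle set and 10273 in the highest. At day 21 the 3 sets had 5797, 20323 and 8172 CPM. Both libraries thus had their highest histone level in the middle set, at S phase shares of 10.7 to 32.8% at day 7 and 9.69 to 35.4% at day 21. Across cells, rho between the histone sum and the S phase genes' CPM was 0.480 at day 7 (206 cells) and 0.532 at day 21 (119 cells). With the G2/M genes' CPM it was 0.202 and 0.400, and with the S phase share itself 0.0934 and -0.0113. Without marker-rich cells, rho with the S phase genes was 0.352 (135 cells) and 0.407 (48 cells), with the G2/M genes 0.126 and 0.318, and with the S phase share 0.103 and -0.219. The middle set of these cells was again the highest, at 19482 CPM at day 7 and 30891 at day 21. The cells share a library and their depth.

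**Figure D4:**
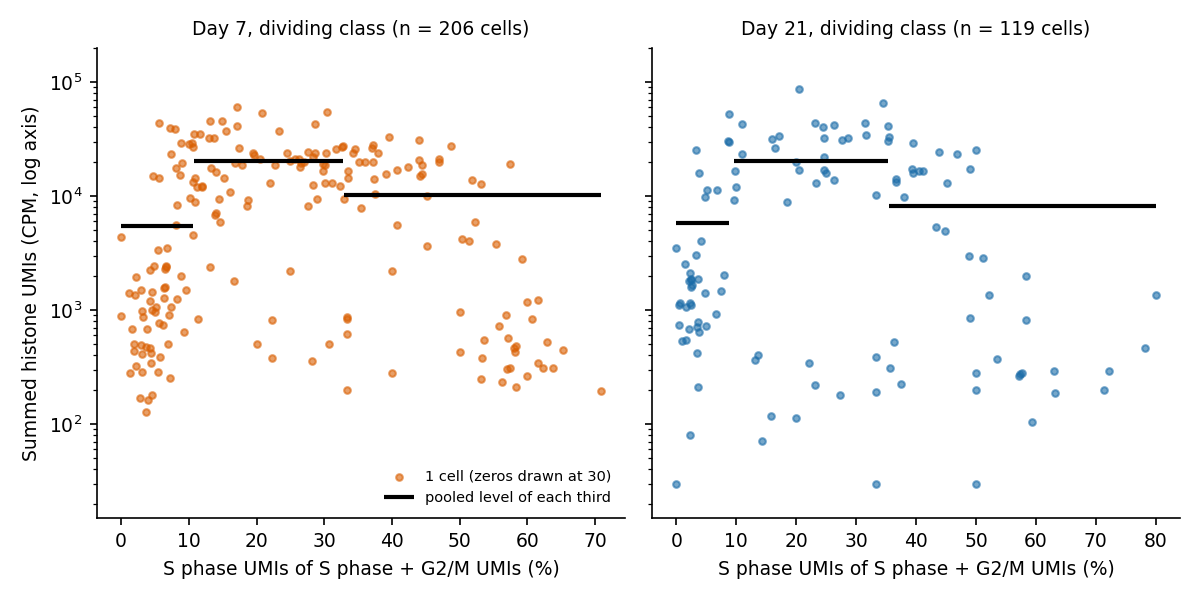
Histone sum per cell (CPM, log axis; cells at 0 drawn at 30) against the share of S phase UMIs among S phase and G2/M UMIs (%) for the 206 dividing cells at day 7 and the 119 at day 21; black lines are the pooled level of each of the 3 sets. Levels are highest at middle shares and lower at both ends.

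Ranges of the S phase share with limits chosen after the values were seen gave lower histone levels at both ends than between them. Of the cells with a share under 10%, 29 of 64 at day 7 and 13 of 43 at day 21 had a histone sum under 1000 CPM, and as a pool they had 4226 and 6625 CPM. Of the cells with an S phase share of 50% or more, 23 of 33 at day 7 and 14 of 19 at day 21 were under that level, and the pools had 2515 and 1790 CPM. Of the cells with a share between 10 and 50%, 11 of 109 and 15 of 57 were, and the pools had 19331 and 18295 CPM. From low to high share, the median cell had 369, 309 and 181 S phase and G2/M UMIs at day 7, and 228, 176 and 73 at day 21. The cell with fewest had 33, 3 and 2 at day 7 and 3, 5 and 5 at day 21. Some cells thus had little cell cycle signal and an uncertain share, also in the sets of equal size above. Without marker-rich cells the 3 ranges, from low to high share, had 2804, 19293 and 1389 CPM at day 7 and 2370, 29079 and 1892 CPM at day 21. Schwann cell markers summed to 1143 to 2099 CPM in the 3 ranges at day 21 and to 66.3 to 433 CPM at day 7, and their part in the pattern was not tested.

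Single genes did not all follow the sum within the dividing class. Hist1h2ap went from 1983 CPM in the set with the lowest S phase share to 9749 in the middle and 5566 in the highest set at day 7, and from 1430 to 9579 and 3634 CPM at day 21. Hist1h2bc was lower in each set of higher S phase share, with 296, 194 and 121 CPM at day 7 and 532, 238 and 116 CPM at day 21. The intervals of its 3 sets did not overlap in either library, the closest being 105.6 to 139 and 174.5 to 216 CPM at day 7. Without marker-rich cells it had 233, 189.5 and 118 CPM at day 7 and 426.5, 315 and 43.7 CPM at day 21, and in both libraries the intervals of the lowest and middle sets overlapped.

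Part of the genes that make or handle histone transcripts and proteins were also higher in dividing cells. Slbp, which binds the stem-loop, was 3.18-fold higher at day 7 (2.87 to 3.52) and 5.60-fold at day 21 (4.82 to 6.49), and 3 and 4 of 10 genes for histone transcript processing and transcription were more than 2-fold higher, with 0 lower. Of 15 histone chaperone and assembly genes, 9 and 8 were more than 2-fold higher and 0 lower, among them Rbbp4, a subunit of chromatin assembly factor 1, at 2.09 and 2.24-fold. Of 11 genes listed as replication-independent histone genes, 6 and 5 were higher and 0 lower. Most, but not all, genes of this kind give polyadenylated transcripts that are not confined to 1 phase of the cycle. H2afz, the H2A.Z variant, was 7.14 and 10.9-fold higher, while H3f3b, a gene for H3.3, was 1.76 and 1.55-fold higher. S phase genes were higher in 35 and 36 of 37 and G2/M genes in 49 of 49 at both times. The shares of all features were 12.6% and 20.7%, as above.

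Over all annotated cells of a library, the histone sum was 417 CPM in intact nerve (404 to 431). It was 2115 CPM at day 7 (interval 2100 to 2130), and day 21 had 1068 CPM (1058 to 1080). Day 7 stood 5.07-fold above intact nerve (4.90 to 5.25) and day 21 2.56-fold (2.47 to 2.65), and both ratios share the intact library. By type, the H2A sum was 13.6-fold and the H3 sum 8.58-fold higher at day 7, the H1 sum 3.34-fold, the H2B sum 2.44-fold and the H4 sum 2.08-fold. At day 7, 44 of 59 members with enough UMIs were more than 2-fold higher than in intact nerve, against 15.3% of all features, and 3 were lower, against 18.1%. At day 21, 38 of 59 were higher than in intact nerve, against 12.9%, and 1 was lower, against 11.5%. Between the injury libraries, 36 of 60 were more than 2-fold lower at day 21 than at day 7, against 10.6%, and 4 were higher, against 13.5%. The share of cells in the dividing class was 0.521% in intact nerve, 11.6% at day 7 and 2.89% at day 21. In that order the dividing class had 3934 (7 cells), 12234 and 12153 CPM, and the other classes 374, 426 and 558 CPM. Between days 7 and 21 the pooled level of the dividing class was thus nearly equal, while its share of cells was lower at day 21. The median dividing cell, however, had 6930 CPM at day 7 and 2108 at day 21. Without marker-rich cells the pools had 11999 and 14975 CPM. The ratios over all annotated cells do not by themselves separate share from level, and the part of each was not tested.

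Outside the dividing class the libraries were much closer in histone sum, at the 374, 426 and 558 CPM given above. The other classes together stood 1.14-fold above intact nerve at day 7 (1.09 to 1.18), and 24 of 51 members were more than 2-fold higher, against 13.6% of all features, with 10 lower, against 18.5%. With at least 20 UMIs required, 12 of 32 were higher, against 10.2% of all features, and 8 of 32 lower, against 12.8%. With Hist1h2bc left out the sum was 1.19-fold lower at day 7 than in intact nerve, and with 1 fixed mixture of the 3 resident classes the log2 ratio was -0.16 instead of 0.19, so no direction is given. Day 21 stood 1.49-fold above intact nerve (1.44 to 1.55), with 14 of 47 members higher, against 11.6%, and 7 lower, against 12.2%; with the fixed mixture the log2 ratio was 0.04 instead of 0.58. Against day 7, 7 of 52 members were higher at day 21, against 14.2%, and 11 were lower, against 9.86%.

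The resident classes differed in level and in direction. In MES_PERI the histone sum was 800 CPM in intact nerve, 520 at day 7 and 777 at day 21. MES_ENDO had 349, 538 and 364 CPM, and MES_EPI 315, 350 and 372. At day 7 against intact nerve, MES_ENDO was thus 1.54-fold higher (1.43 to 1.65), MES_EPI 1.11-fold higher (1.05 to 1.19) and MES_PERI 1.54-fold lower, with a ratio of 0.650 (0.592 to 0.714). Perineurial markers were lowest in MES_PERI at day 7, as given above, and 32 of the 116 intact MES_PERI cells had at least 1000 CPM of 4 vascular smooth muscle markers. Without those cells the intact value was 710 CPM and that of day 7, without 11 such cells, 518 CPM.

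Hist1h2bc, the H2B gene with most UMIs outside the dividing class, carried most of the difference in MES_ENDO. It measured 56.8 CPM in intact MES_ENDO, 230 at day 7 and 92.2 at day 21, and day 7 was 4.06-fold above intact nerve (3.47 to 4.76). With Hist1h2bc left out, the histone sum of MES_ENDO was 1.05-fold that of intact nerve at day 7 (0.965 to 1.14). In MES_EPI the gene measured 91.7, 176 and 158 CPM, and in MES_PERI 288, 198 and 303 CPM. MES_DIFF, a class named by the authors that had only 16 cells in intact nerve, had 96.5 CPM from 11 UMIs, 205 and 252 CPM. The 3 libraries' intervals did not overlap in MES_ENDO and MES_EPI, while in MES_PERI the intact and day 21 intervals did. Over the classes other than dividing, 32.3%, 79.7% and 67.3% of cells had a Hist1h2bc UMI, and 13.6%, 26.9% and 33.3% after thinning to 2000 UMIs.

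Hist1h1c, the H1.2 gene, was higher in MES_PERI than in MES_ENDO and MES_EPI in intact nerve and at day 21, while at day 7 the intervals of MES_PERI overlapped those of both. In MES_PERI it measured 143 CPM in intact nerve, 31.2 at day 7 and 138 at day 21, so day 7 was 4.60-fold below intact nerve (3.50 to 6.04). Without cells rich in vascular smooth muscle markers the 3 values were 120, 31.2 and 139 CPM. In MES_ENDO it measured 30.3, 27.6 and 34.01 CPM with overlapping intervals, and in MES_EPI 24.1, 24.5 and 43.7 CPM. The H1 sum of the other classes was 2.48-fold higher at day 21 than at day 7 (2.35 to 2.62), and MES_PERI cells were 50.3% of the annotated cells at day 21 against 13.5% at day 7. Within classes the H1 sum at days 7 and 21 was 77.9 and 98.8 CPM in MES_ENDO and 53.4 and 83.6 in MES_EPI. It was 78.4 and 224.7 CPM in MES_PERI and 50.35 and 114.0 in MES_DIFF. MES_EPI-diff went the other way, with 68.9 and 49.6 CPM, the latter from 13 UMIs. The part of the class shares in the ratio was not tested. Hist2h2aa1 had an order like that of Hist1h1c in MES_PERI, with 79.97, 19.2 and 39.2 CPM. So did Hist2h3c2, with 11.0, 1.07 and 6.95 CPM from 8, 4 and 93 UMIs.

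**Figure D5:**
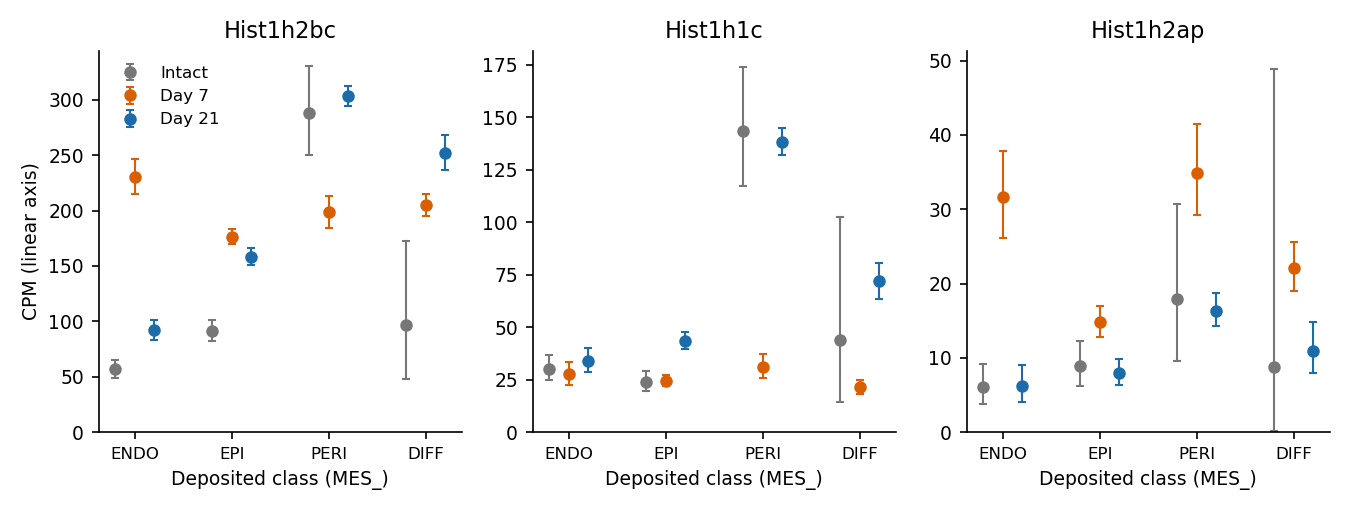
Levels of Hist1h2bc, Hist1h1c and Hist1h2ap (CPM, linear axes) in 4 deposited classes other than MES_DIV in each library, with 1 point per class and library and bars for the 95% Poisson interval. Hist1h2bc at day 7 is above intact nerve in MES_ENDO (230 against 56.8 CPM) and below it in MES_PERI (198 against 288 CPM), and Hist1h1c in MES_PERI is low at day 7 alone.

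Among the H4 genes, 2 went opposite ways outside the dividing class. Hist1h4c measured 12.7 CPM in intact nerve, 2.97 at day 7 and 3.98 at day 21, 4.28-fold lower at day 7 (3.20 to 5.72). Intact nerve was also highest in MES_ENDO, with 13.5, 3.48 and 3.91 CPM, and in MES_EPI, with 12.9, 2.95 and 3.88 CPM. MES_PERI had 5.51, 3.998 and 3.96 CPM, with days 7 and 21 nearly equal. Its intact value rests on few UMIs of Hist1h4c, from 116 cells with 725278 UMIs of all genes, so no difference between classes is read from it. Hist1h4i measured 1.21, 12.6 and 6.71 CPM, 10.4-fold higher at day 7 than in intact nerve from 10 UMIs there (5.60 to 21.9). In MES_PERI it measured 6.89, 20.3 and 10.1 CPM. Hist1h4d and Hist1h1e were both lower at day 7 than in intact nerve, by 1.78-fold (1.60 to 1.98) and 1.72-fold (1.52 to 1.93).

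Hist1h2ap also had UMIs outside the dividing class. In the other classes it measured 8.83, 28.0 and 11.6 CPM, and at day 7 it was 3.17-fold above intact nerve (2.50 to 4.09). A UMI of it was found in 4.94%, 24.5% and 7.09% of these cells, and in 1.497%, 4.57% and 2.38% after thinning to 2000 UMIs. Median depth in these cells was 5652 UMIs in intact nerve, 18933 at day 7 and 7360 at day 21. The shares of cells with a dividing marker were not thinned, so depth cannot be told apart from dividing signal in them. At day 7, 36.2% of the cells of the other classes had at least 1 UMI of the 8 dividing markers, against 2.84% in intact nerve and 6.21% at day 21. Cells with such a UMI had 47.4 CPM of Hist1h2ap at day 7 and those without 14.3 CPM, and at day 21 the 2 values were 33.97 and 9.81 CPM. In intact nerve they were 7.39 CPM, from 2 UMIs, and 8.88 CPM. The class MES_EPI-diff held 94 cells at day 7, and 220 of its 241 Hist1h2ap UMIs lay in cells with a dividing marker, with 46 UMIs in 1 cell. The part of these cells in the result was not tested.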

How the data were processed

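The deposited files hold UMI counts per gene and cell barcode for 3 libraries, made by the authors with Cell Ranger 6.1.2, per the file headers; the submitters' processing notes also name Cell Ranger 3.0.2, Seurat 4.0.1 and the mouse builds mm10 and GRCm38. Which of the 2 Cell Ranger versions made which step, and the cell filters, are not given in the sources used here. A deposited table of cells gives the library and class of 7235 cells, of which 7234 were found in the count matrices; the other barcodes carry no class.

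Counts were summed over the cells of a class and library and scaled to CPM, with no further filter on cells and no doublet caller. Poisson (CPM), conditional binomial (ratios) and Clopper-Pearson (shares of cells) intervals are exact at 95% and cover counting error only. Log2 ratios used a pseudocount of 0.5. A gene was counted as higher or lower past 2-fold with more than 3 UMIs in either set; the code was tested on simulated data. Nothing was tested between groups, since each is 1 library.

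The genes named with values are the 4 with most UMIs in each histone type and, among those with at least 50 UMIs, the 4 highest and 4 lowest ratios of dividing to other classes; Hist1h1b, Hist1h2bc, Hist1h3b, Hist1h3c and Hist3h2a fall under both. From the other gene lists, genes named with values are among the 4 of each list with most UMIs. The members and lists were chosen with earlier results of these data known. Transcript models came from GENCODE M21, and all 69 gene IDs matched it by version. Python 3.11.15, numpy 2.4.6, scipy 1.17.1, pandas 2.3.3 and matplotlib 3.10.9 were used. Alternatives weighted each cell alike, thinned cells to 2000 UMIs, used every barcode, left out single genes or cells with cell cycle UMIs, fixed the class mixture, or moved the limits on UMIs and fold.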

Additional observations from a re-analysis of the deposited data

Results flagged for a closer look

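At day 7 against intact nerve, the log2 ratio of the histone sum was 0.622 in MES_ENDO and -0.622 in MES_PERI, so the classes moved in opposite directions. Hist1h4h, a histone H4 gene, did so too, with 0.799 in MES_ENDO and 0.668 in MES_EPI against -0.786 in MES_PERI. Hist3h2a, an H2A gene, had a log2 ratio of 0.61 in MES_ENDO and -0.736 in MES_EPI at day 21 against intact nerve. Hist1h2bc, an H2B gene, had 0.612 in MES_PERI and -1.32 in MES_ENDO at day 21 against day 7. With 1 library for each time, none of these differences between classes was tested.

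Barcodes with no class in the deposited cell table numbered 862 in intact nerve, 3096 at day 7 and 3511 at day 21, at median depths of 2076, 2499 and 4368 UMIs. Their histone sum was 1463.3 CPM at day 7 and 735.6 CPM at day 21, against 423.6 CPM in intact nerve. Hist1h2ap measured 525.3 CPM at day 7 and 50.34 CPM at day 21 in them, against 3.187 CPM in intact nerve. In these barcodes the 8 dividing markers summed to 24.5, 310 and 89.2 CPM in intact nerve, at day 7 and at day 21. Vascular smooth muscle markers summed to 21671, 1300 and 1372 CPM, Schwann cell markers to 71.4, 1026 and 16224 CPM, and myeloid markers to 117, 2517 and 1283 CPM in that order. The part of these cell types in the histone sum of the barcodes was not tested.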

How the results depend on the processing

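Values here are log2 ratios of the histone sum unless counts or shares are named. No paired analysis was possible because each group is 1 library, and for the same reason no replicate could be left out. Of 77 recomputed summary values 24 stayed within the main value's counting interval (counts of genes, within 1.5-fold) and 53 moved, some of them across 0 as given below. Over all annotated cells, day 7 against intact (2.34) was 2.14 with each cell weighted alike, 2.12 after thinning to 2000 UMIs, 1.66 without Hist1h2ap and 2.16 over every barcode; day 21 against intact (1.36) was 1.22, 1.22, 1.06 and 1.18 in that order. Day 21 against day 7 (-0.985) was -0.922, -0.906 and -0.601 under the first 3.

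Dividing against other classes was 4.61, 4.58 and 4.0 at day 7 (4.84) and 4.25, 4.27 and 3.65 at day 21 (4.44) under the same 3 settings, and 4.82 and 4.75 with marker-rich dividing cells left out; with vascular smooth muscle included in that limit it was 4.7 at day 21. Day 21 against day 7 within the dividing class (-0.00953) was 0.0407 thinned, 0.11 without Hist1h2ap, 0.32 without marker-rich cells and 0.255 with vascular smooth muscle included.

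In the other classes, day 7 against intact (0.188) had no stable sign: it was 0.325 with each cell alike, 0.333 thinned, 0.124 without Hist1h2ap, 0.0229 in cells with no UMI of the 8 dividing markers, -0.163 with 1 fixed class mixture, -0.254 without Hist1h2bc and -0.669 in the few cells (41 intact, 10 at day 7, 45 at day 21) with no S phase or G2/M UMI. Day 21 against intact (0.577) was 0.689 with each cell alike, 0.68 thinned, 0.0418 with the fixed mixture, 0.27 without Hist1h2bc and 0.854 in those few cells. Day 21 against day 7 (0.39) was 0.347 thinned, 0.458 without Hist1h2ap, 0.205 with the fixed mixture, 0.524 without Hist1h2bc, 0.535 without dividing-marker cells and 1.52 in those few cells. The settings without Hist1h2bc, without dividing-marker cells and without marker-rich dividing cells, and the ratios that leave out a library, were chosen after seeing the data. The cause of these shifts was not tested.

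At a 4-fold limit, members higher at day 21 against intact numbered 18 of 59 over all cells (3.94% of all features) and 3 of 47 in the other classes (3.43%). Members lower at day 21 against day 7 numbered 2 of 60 (3.57%), and members higher 1 of 58 in the dividing class (3.18%) and 1 of 52 in the others (4.71%). Members higher at day 7 against intact in the other classes numbered 11 of 51 (5.25%). With at least 20 UMIs, the other classes had 12 of 32 higher at day 7 (10.2%) and 9 of 30 at day 21 (7.86%) against intact, and the dividing class 2 of 52 at day 21 against day 7 (6.26%). Thinned, 85.4% (day 7) and 82.3% (day 21; 82.35% to 4 digits) of dividing cells had a histone UMI. Of 678 recomputed values of single genes, 555 stayed, 122 moved and 1 reversed: Hist1h3c, day 21 against intact in the other classes, was -1.58 thinned and rests on 7 against 0 UMIs unthinned.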
